A study of Homo sapiens with 3 samples.

Results

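The desmosome genes described here are 10 genes that encode the main proteins of the desmosome: the desmogleins DSG1, DSG2 and DSG3, the desmocollins DSC1, DSC2 and DSC3, desmoplakin (DSP), plakoglobin (JUP) and the plakophilins PKP1 and PKP3. They were chosen by gene symbol, and each symbol matched 1 of the 62754 genes in the table through its Ensembl identifier. RNA was sequenced in 3 replicates of MCF10A, a human breast epithelial line that is immortal but does not form tumours. All replicates carried the empty vector (EV) of a retroviral, doxycycline-inducible expression system (Retro-X Tet-One) with no gene inserted, and were selected with puromycin. They received no treatment and no doxycycline, and RNA was taken 27 h after seeding, in exponential growth. Since the libraries are of 1 condition, no groups can be compared, and the data describe levels and their order in 1 line. The sample titles and library names do not name a batch. No source states that the replicates came from separate cultures, so their spread may be technical.

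Desmosomes are junctions that hold neighbouring epithelial cells together and tie the junction to the keratin filaments inside each cell. Desmogleins and desmocollins are calcium-dependent cadherins that span the membrane and bind their counterparts on the next cell. Inside the cell, the armadillo proteins plakoglobin and plakophilin bind the cadherin tails, and desmoplakin links them to keratin. The isoforms are used differently through a stratified epithelium: DSG2 and DSC2 occur in all tissues with desmosomes, DSG3 and DSC3 mainly in basal layers, and DSG1, DSC1 and PKP1 mainly in the differentiated upper layers of skin.

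The unit is TPM (transcripts per 1000000), which corrects read numbers for gene length, so that levels of different genes can be compared within a library. The libraries held 15273329, 15446347 and 11166546 reads on annotated genes, as recovered from the TPM values. Replicate 3 stood apart: the short noncoding RNA RN7SL1 was at 150632 TPM there, against 49293 and 56610 TPM in replicates 1 and 2, and protein-coding genes held 79.6% of all TPM, against 91.5% and 89.8%. The labelled cell type was checked against markers. All 8 genes of the basal epithelium list were at or above 1 TPM, among them KRT5 and KRT14. This list also holds EPCAM and CDH1, which are not specific to basal cells. In the other lists, 3 of 7 luminal, 2 of 5 myoepithelial, 3 of 8 fibroblast, 1 of 5 endothelial, 0 of 5 immune and 0 of 5 cardiac markers were. Of all protein-coding genes, 56.7% were. Of the luminal markers, GATA3 averaged 12.8 TPM, MUC1 7.25 TPM and FOXA1 1.11 TPM, while ELF5 and KIT had 0 reads. Of the fibroblast markers, POSTN averaged 219 TPM, DCN 9.05 TPM and COL1A1 4.96 TPM, while COL1A2, PDGFRA and LUM had 0 reads.

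Of the 10 desmosome genes, 8 had a mean of at least 1 TPM, the cutoff in the study's methods for an expressed gene, and all 8 were at or above it in every replicate. That mean was reached by 24.9% of all genes and by 56.7% of protein-coding genes. The other 2, DSG1 and DSC1, were at or near 0. In 4 genes, DSP, DSG2, PKP3 and JUP, the mean was at least 100 TPM, a level reached by 7.86% of protein-coding genes. Summed over the 10 genes the level was 973, 976 and 797 TPM (915 ± 103 TPM, SD, n = 3). The order of the means was DSP, DSG2, PKP3, JUP, DSC3, DSG3, DSC2, PKP1, DSG1 and DSC1. For 8 of the 9 pairs of neighbours in this order, the difference in log2(TPM + 1) had the same sign in every replicate and a mean above its SD. The exception was DSG1 and DSC1. With 3 replicates an exact two-sided sign test cannot go below p = 0.25, so no test of the order was made.

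**Figure D1:**
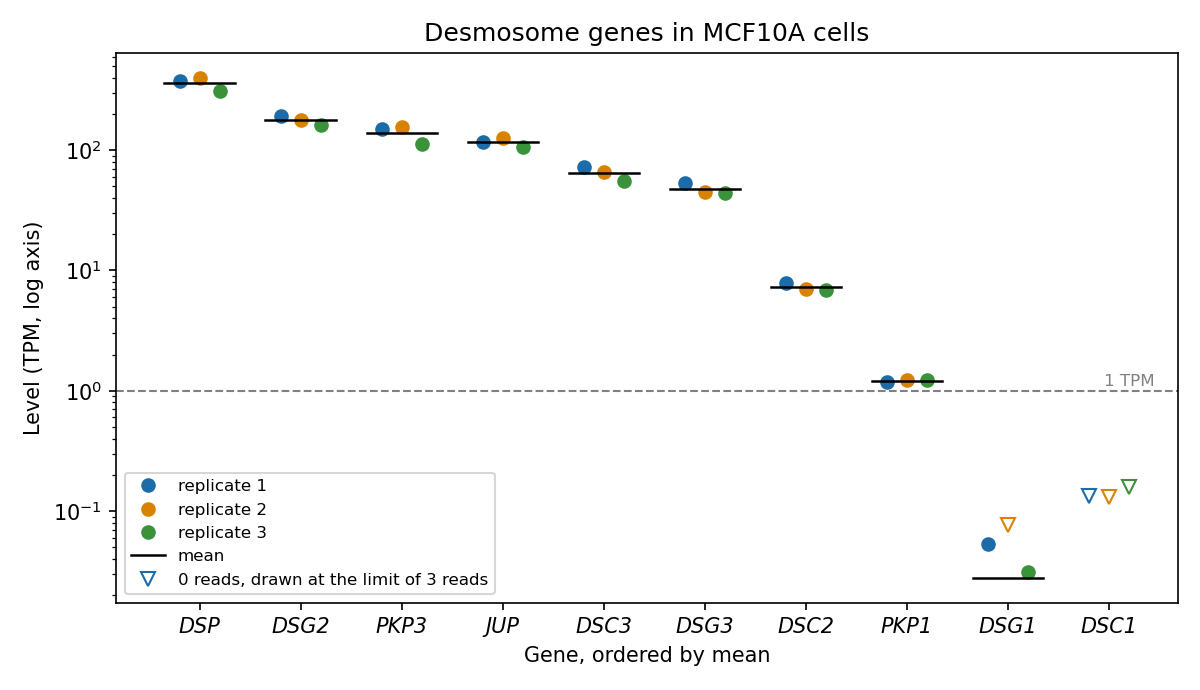
Level of each desmosome gene in TPM on a log axis, with 1 point per replicate and a bar at the mean. An open triangle marks 0 reads and is drawn at the level that 3 reads would give. DSP, the highest, lies between 308 and 398 TPM, PKP1 lies just above the dashed line at 1 TPM, and DSG1 and DSC1 lie below it.

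Among the desmogleins, DSG2 was the highest in every replicate. DSG2 (ENSG00000046604, chr18:31498177-31549008 of hg38, plus strand) was measured at 191, 177 and 161 TPM in replicates 1, 2 and 3 (177 ± 15.2 TPM, SD, n = 3), which placed it at rank 779 of 20046 protein-coding genes. DSG3 (ENSG00000134757, chr18:31447741-31478702, plus strand), the desmoglein of basal cells and the main autoantigen in pemphigus vulgaris, was at 53.6, 45.1 and 44.5 TPM (47.7 ± 5.14 TPM, SD, n = 3). The lowest value of DSG2 was thus above the highest of DSG3, and within a replicate DSG2 was 3.57, 3.93 and 3.62 times DSG3 (3.71 ± 0.198, SD, n = 3). DSG1 (ENSG00000134760, chr18:31318160-31359246, plus strand), the desmoglein of the upper epidermis and the autoantigen of pemphigus foliaceus, had 2, 0 and 1 reads, or 0.0529, 0 and 0.0311 TPM. Its exact 95% Poisson interval reached up to 0.191, 0.0949 and 0.173 TPM in replicates 1, 2 and 3, so that these limits all lay below 1 TPM. For the 0 reads of replicate 2, the level of 3 reads was 0.0772 TPM. Summed over the libraries and per length, DSG3 was 1737 times DSG1, with an exact 95% interval from 594 to 8427 that covers counting error only. The exons of these 3 genes had no overlap with exons of other genes on their own strand.

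The start regions of DSG1 and DSG3 are shown because they resemble each other while the levels of both genes lie far apart. The 250 bases before each RefSeq start are given 5′ to 3′ on the strand of the gene (GRCh38.p14), and capitals mark a run of 20 bases that both hold without a mismatch.
DSG1, chr18:31317910-31318159, plus strand: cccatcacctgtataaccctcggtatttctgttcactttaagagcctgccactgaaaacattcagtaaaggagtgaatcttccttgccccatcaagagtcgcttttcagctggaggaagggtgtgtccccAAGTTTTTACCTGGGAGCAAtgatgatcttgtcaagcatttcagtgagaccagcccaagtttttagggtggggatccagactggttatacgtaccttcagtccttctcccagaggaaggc
DSG3, chr18:31447491-31447740, plus strand: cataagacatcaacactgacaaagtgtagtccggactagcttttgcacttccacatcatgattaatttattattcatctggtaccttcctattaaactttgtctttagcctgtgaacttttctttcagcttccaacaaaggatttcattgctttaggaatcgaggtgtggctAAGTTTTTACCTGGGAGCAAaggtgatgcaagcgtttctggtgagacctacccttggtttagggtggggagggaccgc
The run lies from 120 to 101 bases before the start of DSG1 and from 78 to 59 bases before that of DSG3. Of 35116 RefSeq windows, each from 250 bases before to 50 bases after a start, 2 held it on either strand, and these were the windows of DSG1 and DSG3. DSG4, a desmoglein gene that is not among those chosen, had no window in this set, so it was not searched. A local alignment of both windows ran over 107 columns, of which 81 were identical (75.7%). In the 14 other pairs among the 6 desmosomal cadherins chosen, without DSG4, the longest shared run had from 7 to 9 bases. Of these pairs, the one with the longest shared run was thus DSG1, at 3 reads in all, and DSG3, at 4040 reads. Local alignments of the 14 other pairs ran over 7 to 32 columns, with 77.8% to 100% identical. DSG1 and DSG3 therefore stood apart by the length of their alignment and not by a higher identity. The match was noticed after the levels were known and is a description of the letters only.

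The start region of DSG2, the highest cadherin, differed from both in its content of CpG, the dinucleotide that is methylated in vertebrate DNA. It is shown beside that of DSC1, a gene with 0 reads, with each CpG in capitals.
DSG2, chr18:31497927-31498176, plus strand: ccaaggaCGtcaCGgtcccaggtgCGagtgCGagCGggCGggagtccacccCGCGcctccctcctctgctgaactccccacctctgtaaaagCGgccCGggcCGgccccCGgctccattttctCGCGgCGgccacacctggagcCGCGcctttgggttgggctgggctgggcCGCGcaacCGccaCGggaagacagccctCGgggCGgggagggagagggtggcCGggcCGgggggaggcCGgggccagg
DSC1, chr18:31162857-31163106, minus strand: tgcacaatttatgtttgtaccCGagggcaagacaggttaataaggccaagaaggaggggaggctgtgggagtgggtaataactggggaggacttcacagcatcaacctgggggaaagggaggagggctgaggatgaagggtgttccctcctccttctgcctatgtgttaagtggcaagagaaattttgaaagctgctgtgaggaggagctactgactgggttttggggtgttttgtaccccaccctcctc
In these 250 bases DSG2 held 26 CpG and DSC1 held 1. Over the whole window, DSG2 held 36 CpG, at or above 88.7% of all windows, and DSC1 held 2, at or above 18.2% of them, where the median window held 14. The window of DSG3 held 6 CpG and that of DSG1 held 3. A relation between CpG number and level was not tested.

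Among the desmocollins, DSC3 was the highest. DSC3 (ENSG00000134762, chr18:30989365-31042815, minus strand), the desmocollin of basal cells, was at 72.4, 66.0 and 55.6 TPM (64.7 ± 8.48 TPM, SD, n = 3). DSC2 (ENSG00000134755, chr18:31058840-31102522, minus strand), the widely expressed desmocollin, was at 7.94, 6.97 and 6.84 TPM (7.25 ± 0.599 TPM, SD, n = 3). The groups of values did not overlap, and DSC3 was 9.12, 9.46 and 8.13 times DSC2 within the replicates (8.91 ± 0.692, SD, n = 3). The gap rests in part on length: the longest annotated transcript of DSC2 has 12377 bases against 7583 bases for DSC3, and by reads alone the ratio was 5.49, from 7481 against 1363 reads. Which transcripts of DSC2 the cells made cannot be read from 1 value per gene. DSC1 (ENSG00000134765, chr18:31129236-31162856, minus strand), the desmocollin of the upper epidermis, had 0 reads in replicates 1, 2 and 3. Taken as 3 reads per library, the limit that a count of 0 allows was 0.134, 0.130 and 0.157 TPM, and the upper bound of the exact two-sided 95% Poisson interval was 0.165, 0.160 and 0.193 TPM. Against the limit of 3 reads, DSC3 was at least 354-fold higher and DSC2 at least 43.5-fold higher in every library. Exons of another gene on the opposite strand cover 17.1% of the canonical DSC1 transcript, and none on the same strand. The paralogue used most therefore differed between both cadherin families: it was DSG2 in one and DSC3, not DSC2, in the other.

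All the desmosomal cadherin genes lie in 1 cluster on chromosome 18, from 30989365 to 31549008 (559.6 kb), which holds 7 protein-coding genes: DSC3, DSC2, DSC1, DSG1, DSG4, DSG3 and DSG2, in this order. The desmocollins lie on the minus strand and the desmogleins on the plus strand. The genes at both outer ends, DSC3 and DSG2, were the highest of their family, and their neighbours DSC2 and DSG3 came next. The 3 genes in the middle, DSC1, DSG1 and DSG4, had from 0 to 3 reads over all libraries. A relation of level to position was not tested. DSG4, the desmoglein of the hair shaft, had 0 reads in each. The cluster also holds 8 genes that do not code for protein, among them the antisense genes DSG1-AS1, with 0 reads, and DSCAS, at 0.478, 0.155 and 0.187 TPM. None of the 8 reached a mean of 1 TPM, and the highest single value was 0.880 TPM. Of the nearest protein-coding genes outside, TTR, next to DSG2, had 0 reads, and CDH2 (N-cadherin), on the far side of DSC3, was at 25.1, 23.0 and 19.6 TPM.

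**Figure D2:**
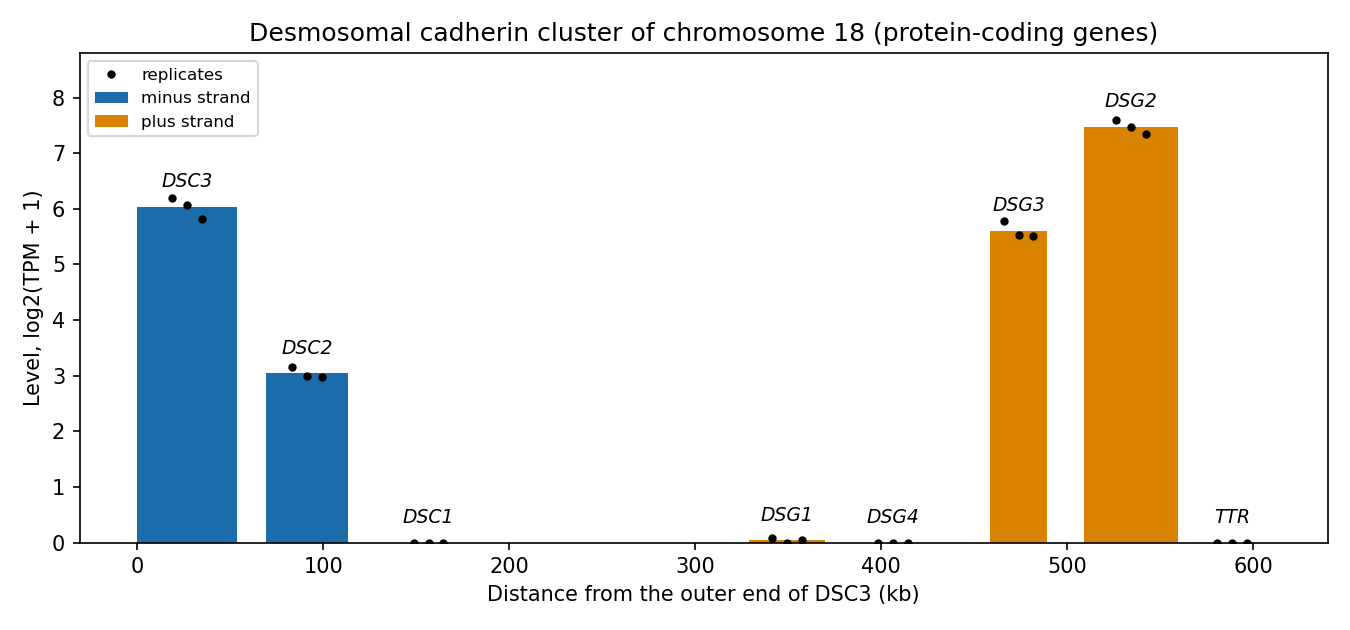
Level as log2(TPM + 1) of the protein-coding genes of the desmosomal cadherin cluster and of TTR, drawn at their distance in kb from the outer end of DSC3, with the width of each bar as the length of the gene. Bars give the mean, points the 3 replicates and colours the strand. DSC3 and DSG2 at the ends are high, and DSC1, DSG1 and DSG4 in the middle are at 0 or near it.

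Of the plaque proteins, DSP was the highest and was the highest of all 10 genes. DSP (ENSG00000096696, chr6:7541338-7586714, plus strand), the plakin that joins the plaque to keratin, was at 379, 398 and 308 TPM (362 ± 47.3 TPM, SD, n = 3), which is rank 335 of 20046 protein-coding genes. Its replicates did not overlap with those of any other member, and it was 1.98, 2.24 and 1.91 times DSG2 within them. JUP (ENSG00000173801, chr17:41754604-41786931, minus strand), the armadillo protein that binds desmosomal cadherin tails and is a close relative of beta-catenin, was at 116, 126 and 106 TPM (116 ± 10.1 TPM, SD, n = 3). DSP was 3.26, 3.16 and 2.91 times JUP (3.11 ± 0.178, SD, n = 3).

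Of the plakophilins, which gather desmoplakin and cadherins at the plaque, PKP3 was high and PKP1 was close to the limit of 1 TPM. PKP3 (ENSG00000184363, chr11:392614-404908, plus strand) was at 151, 155 and 113 TPM (139.9 ± 23.0 TPM, SD, n = 3), the widest relative spread of the 8 genes above 1 TPM (16.5% of the mean). Its values overlapped with those of JUP, although PKP3 was above JUP in each replicate. PKP1 (ENSG00000081277, chr1:201283452-201332993, plus strand), the plakophilin of stratified epithelia that is lost in ectodermal dysplasia with skin fragility, was at 1.19, 1.22 and 1.23 TPM (1.21 ± 0.0234 TPM, SD, n = 3). This rests on 34, 36 and 30 reads, and the exact 95% Poisson interval ran from 0.822 to 1.66 TPM in replicate 1, so that the side of 1 TPM on which PKP1 lies was not resolved at this depth. In bulk RNA a few cells with much PKP1 and many cells with little cannot be told apart, and the same holds for each level given here. PKP3 was 127, 127 and 92.1 times PKP1 within the replicates. PKP2, which is not among the 10 genes and is best known from the desmosomes of the heart, was at 73.3, 69.1 and 57.1 TPM (66.5 ± 8.40 TPM, SD, n = 3), so that among plakophilins 1 to 3 it and not PKP1 came after PKP3. PKP3 was 2.06, 2.25 and 1.99 times PKP2.

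Each family was led by 1 paralogue in every replicate. Of the summed desmoglein TPM, DSG2 made up 78.7 ± 0.885% and DSG3 21.3 ± 0.874% (SD, n = 3 each). Of the desmocollins, DSC3 made up 89.9 ± 0.730% and DSC2 10.1 ± 0.730%. Of plakophilins 1 to 3, PKP3 made up 67.3 ± 1.43%, PKP2 32.1 ± 1.35% and PKP1 0.595 ± 0.106% (SD, n = 3 each). A share is formed within a library, so a factor common to that library leaves it as it is.

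**Figure D3:**
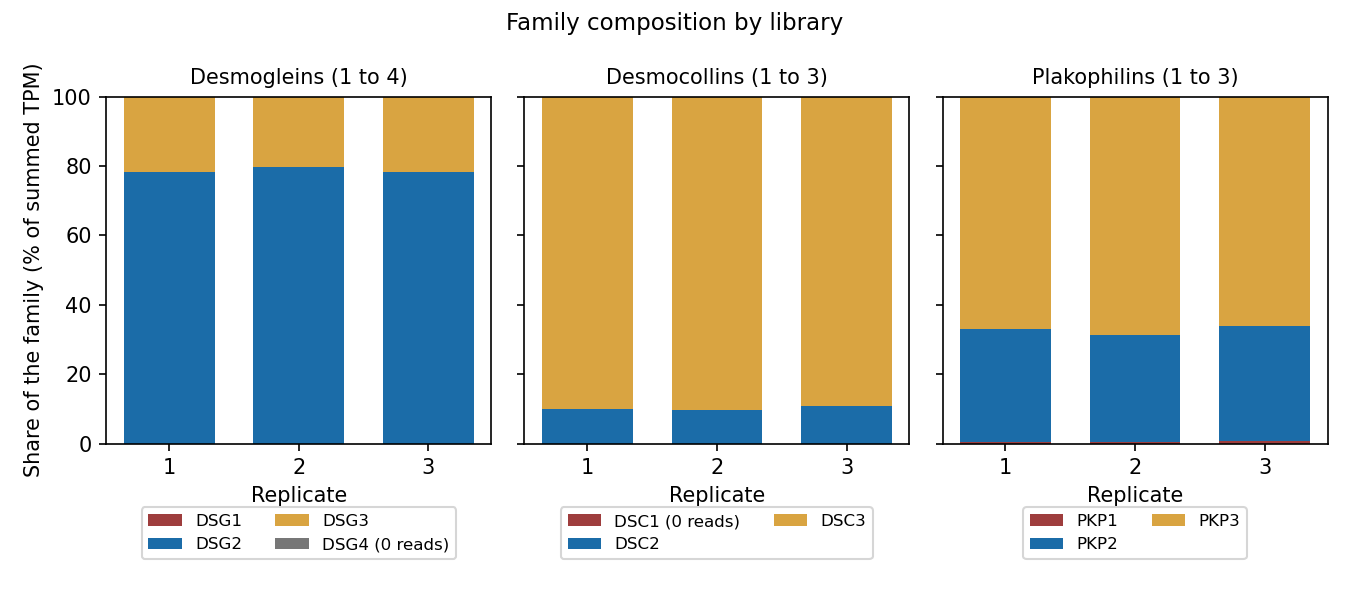
Share of each paralogue in the summed TPM of its family, in percent, in replicates 1 to 3. DSG2 holds from 78.1% to 79.7% of the desmogleins, DSC3 from 89.1% to 90.4% of the desmocollins and PKP3 from 66.0% to 68.8% of plakophilins 1 to 3.

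Levels were also summed by role in the junction. The 6 desmosomal cadherins summed to 325, 295 and 268 TPM (296 ± 28.7 TPM, SD, n = 3), with desmogleins 3.05, 3.05 and 3.29 times the desmocollins. JUP with PKP1, PKP2 and PKP3 summed to 0.901, 0.884 and 0.900 times DSP (0.895 ± 0.00986, SD, n = 3). Without PKP2, which is not among the members, JUP, PKP1 and PKP3 summed to 268, 283 and 220 TPM (257 ± 32.6 TPM, SD, n = 3). DSP was at 379, 398 and 308 TPM. The cadherins summed to 0.858, 0.742 and 0.869 times DSP (0.823 ± 0.0704, SD, n = 3). The sums over roles were formed after the levels were seen. They are ratios of transcripts per length and not of proteins.

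Replicate 3 was the lowest library for 7 of the 8 genes above 1 TPM, and the exception was PKP1. This was the state of most genes: replicate 3 was the lowest for 82.8% of the 8809 genes that averaged 10 TPM or more. The median log2 ratio of replicate 3 against replicate 1 was -0.26 over these 8 members and -0.25 over the 8809 genes. With TPM scaled so that protein-coding genes sum to 1000000 in each library, replicate 3 was the lowest for 3 of the 8 members, DSC3, DSP and PKP3, beside 47.8% of the 8809 genes. The median log2 ratio against replicate 1 was then -0.06 for the members and -0.05 for the 8809 genes. Of the 8, PKP3 was the furthest below replicates 1 and 2 after scaling, at -0.21 against replicate 1 and -0.28 against replicate 2, while PKP1, with few reads, was above both at 0.25 and 0.18.

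**Figure D4:**
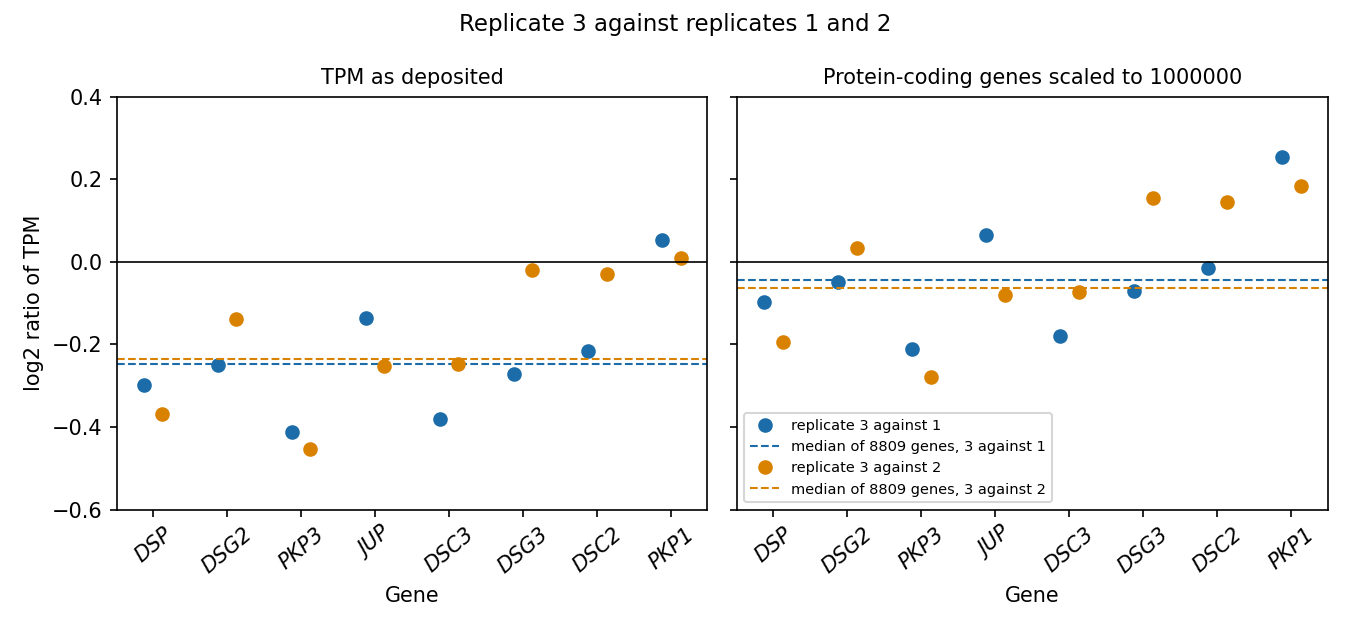
log2 ratio of TPM in replicate 3 against replicates 1 and 2 for the 8 desmosome genes above 1 TPM, as deposited on the left and with protein-coding genes scaled to 1000000 on the right. Dashed lines give the medians of the 8809 genes that averaged 10 TPM or more, which lie at -0.25 and -0.24 on the left, and PKP3 lies below both in each panel.

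The SD of log2(TPM + 1) between replicates had a median of 0.14 over the 8 members above 1 TPM, beside 0.19 over the 15640 genes above 1 TPM and 0.16 over the 8809 genes that averaged 10 TPM or more. Over all 10 members it was 0.12 as deposited and 0.08 with protein-coding genes scaled, and 0.06 without replicate 1 or without replicate 3. As deposited, the SD of the 8 lay between 0.02 for PKP1 and 0.25 for PKP3. The 1 TPM added before the log lowers the SD of genes near or below 1 TPM, so that of PKP1 does not show low variability. The medians over all 10 members include DSG1 at 0.04 and DSC1 at 0. A chi-square test of the reads under equal TPM, adjusted by Benjamini-Hochberg over 15802 genes, asks whether the libraries differed by more than counting error. It called 6 of the 8 members tested, beside 54.3% of all genes tested, and the same number with protein-coding genes scaled, beside 33.4%. The 2 members not called were DSC2, with 1363 reads in all, and PKP1, with 100 reads, whereas DSG1 and DSC1 had too few reads for the test. The 6 members called had from 4040 reads in all, for DSG3, to 53564, for DSP. More reads let the test call smaller differences, and the shares over all genes were not matched for reads. They therefore do not show that desmosome genes differed more often than other genes of their depth. Without replicate 1 or without replicate 3 the test called 5 members, and without replicate 2 it called 6. No share over all genes is given for these settings. The test compares these libraries and not conditions, and it covers counting error only.

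Other genes of the desmosome and its neighbourhood were read from lists. Of 7 further desmosome genes, 5 were at or above 1 TPM, a mean reached by 56.7% of protein-coding genes. The highest was PERP, a tetraspan membrane protein of desmosomes and a target of p63, at 256, 227 and 225 TPM (236 ± 17.3 TPM, SD, n = 3), followed by PKP4, a relative of the plakophilins also found at adherens junctions, at 74.8, 68.2 and 57.6 TPM, and by PKP2. The plakins PPL (periplakin) and EVPL (envoplakin), which take part in the cornified envelope, were at 27.9 ± 3.36 and 18.4 ± 2.08 TPM (SD, n = 3 each). CDSN, corneodesmosin of the cornified layer, had 1, 0 and 2 reads, and DSG4 had 0. All 12 genes of the adherens junction list were at or above 1 TPM, with CTNNA1 (alpha-catenin) the highest at 442 ± 33.1 TPM (SD, n = 3). CTNNB1 (beta-catenin), the relative of JUP in the adherens junction, was at 299, 269 and 278 TPM, and JUP was 0.388, 0.469 and 0.381 times it (0.413 ± 0.0489, SD, n = 3). Desmosomal cadherins summed to 1.91, 1.73 and 1.85 times the sum of CDH3 (P-cadherin) and CDH1 (E-cadherin), the cadherins in the adherens junction list. CDH2, which also forms adherens junctions and was at 25.1, 23.0 and 19.6 TPM, is not in that sum. CDH3 was at 133 ± 12.7 TPM (SD, n = 3) and CDH1 at 30.3, 30.1 and 26.7 TPM. CTNND1 (p120-catenin), the relative of the plakophilins, was listed at 3.93, 6.27 and 4.80 TPM, but same-strand exons of other genes cover 78.6% of its canonical transcript, so that its level is uncertain.

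**Figure D5:**
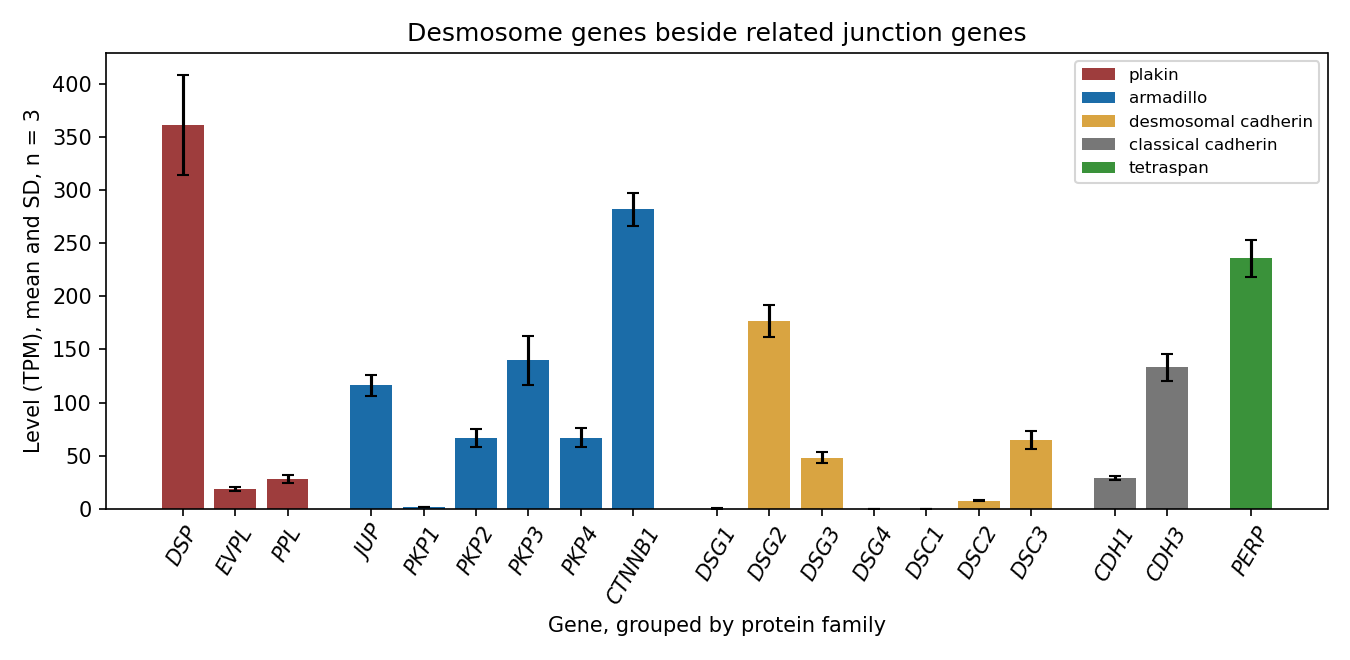
Mean level in TPM of the desmosome genes and of related junction genes, grouped by protein family, with the SD between the 3 replicates. DSP stands above the other plakins PPL and EVPL, CTNNB1 above JUP, and DSG2 above CDH3 and CDH1.

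Keratins, the filaments to which desmoplakin binds, were led by those of basal cells. All 4 keratins of the basal list were at or above 1 TPM, led by KRT5 at 6612 ± 889.9 TPM and KRT14 at 4144 ± 618 TPM (SD, n = 3 each), and all 4 wound keratins were, led by KRT6A at 2503 ± 334 TPM. Of the simple keratins 3 of 4 were, led by KRT7 at 1387 ± 182 TPM. KRT18 averaged 413 TPM and KRT8 118 TPM, and KRT19 had 1 read in all. Keratins KRT6A, KRT6B and KRT6C are near-identical copies, and the counting may have moved reads between them. The genes that accompany DSG1 and DSC1 in the upper layers of skin were mostly below 1 TPM. Of 15 genes of the suprabasal list, 12 were below 1 TPM, 6 of them with 0 reads, including LORICRIN and FLG2. Of all protein-coding genes, 56.7% had a mean of at least 1 TPM and 26.2% had 0 reads in every replicate. KRT1, the first suprabasal keratin, had 0, 0 and 3 reads and IVL (involucrin) 3, 2 and 2. The 3 at or above 1 TPM were KRT10 at 18.6 ± 1.56 TPM, the transglutaminase TGM1 at 10.7 ± 0.475 TPM and CNFN at 2.55 ± 1.37 TPM (SD, n = 3 each).

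Start regions were also read for short sequence words, on both strands of the RefSeq windows, which were found for 9 of the 10 members. The GC box GGGCGG was in 5 of the 9 windows, with 8 matches in DSP, 3 in JUP, 2 in DSG2 and 1 each in DSC2 and PKP1, beside 45.0% of all windows. The E-box CAGGTG, a word bound by SNAI2 among others, was in 4 of 9, those of DSG1, DSG2, DSC2 and DSP, beside 20.6% of all windows. The TATA box TATAAA (11.5% of all windows), the AP-1 word TGANTCA (7.71%) and the Grainyhead word AACNGGTT (1.73%) were in none of the 9. The window of DSP held 37 CpG, at or above 90.1% of all windows, and those of DSC3, JUP, PKP1 and DSC2 held 25, 23, 19 and 15. Of the 9 windows, those of DSP and DSG2 held the most CpG and those of DSC1 and DSG1 the fewest. PKP1, at 1.21 TPM, held more CpG than DSG3 at 47.7 TPM. Whether CpG number goes with level was not tested.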

How the data were processed

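RNA-seq was analysed in 3 replicates of untreated MCF10A cells with an empty vector. Libraries were prepared by the authors from 300 ng of RNA depleted of ribosomal RNA. Reads were mapped to hg38 and counted with Seq2science. The submitters' processing notes also list fastp, STAR and MultiQC. The annotation release and the strand setting are not given in the sources used here. The authors deposited 1 table of TPM for 62754 genes, in which each replicate sums to 1000000, and it was used as deposited.

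Genes were matched by Ensembl identifier to GENCODE release 44 on hg38 (62700 of 62754 found). TPM times a gene length (the longest transcript less 1 base per exon), divided by its smallest value above 0, was whole within 0.01 in 100% of annotated genes, and these whole numbers are called reads, on the assumption that the smallest step is 1 read. For genes at 0 the limit is the level of 3 reads per library. Intervals and limits cover counting error only. Levels were compared within replicates, and spread was the SD of log2(TPM + 1). Reads were tested against equal TPM by chi-square in genes with at least 15 reads, with Benjamini-Hochberg adjustment and a threshold of 0.05. Scripts were tested on simulated data. Members and gene lists were chosen with earlier results of these data known. All 10 members, 7 further desmosome genes, genes of the chromosome 18 cluster, and the highest and up to 3 other genes of each list are named. Further genes named were chosen after their values were seen. Start regions are from RefSeq (GRCh38.p14). Alternatives covered the cutoff, the summary of replicates, the scaling, the pseudocount, the filter, each replicate left out and, added after the data were seen, transcript length. Tools were scipy 1.17.1, pandas 2.3.3 and numpy 2.4.6 in Python 3.11.15, with matplotlib 3.10.9 for plots.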

Additional observations from a re-analysis of the deposited data

How the results depend on the processing

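No paired analysis was possible because the replicates form a single condition. The number of members at or above 1 TPM was 8 under each alternative but the cutoff of 2 TPM, where PKP1 was below it and 7 remained. With the length of the canonical transcript in place of the longest, a setting added once the data had been seen, the number at or above 1 TPM in every replicate was 7. The summed level was 915 TPM as deposited, 1050.3 TPM with protein-coding genes scaled to 1000000 and 747 TPM with the canonical length. These settings multiply the members of a library by nearly the same factor, and under them 7 and 8 of the 10 members moved by more than their SD. Ratios between members moved by less than their SD with the median of the replicates, each replicate left out and the canonical length. The cutoff, the pseudocount, the filter and the scaling cannot change a ratio formed within a library. The canonical length could move these ratios only little. For the members, the length used was from 0.995 (PKP3) to 1.02 (PKP1) times the canonical one. This setting therefore does not bear on which transcripts of DSC2 the cells made. JUP over CTNNB1 was 0.309 with the canonical length in place of 0.413, since the longest transcript of CTNNB1 is longer than its canonical one. The median SD of log2(TPM + 1) over all 10 members was 0.12, was 0.08 with protein-coding genes scaled to 1000000, and lay between 0.06 without replicate 1 or without replicate 3 and 0.15 without replicate 2, and the cause was not tested. Depth limits PKP1, DSG1, DSC1 and DSG4.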

Other observations

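Genes that act on desmosomes were read from lists, as levels with no comparison. All 15 genes of desmosome turnover and signalling were at or above 1 TPM, beside 56.7% of protein-coding genes. The highest were CAV1 (caveolin) at 742 ± 102 TPM and the arginine methyltransferase PRMT1 at 355 ± 39.2 TPM (SD, n = 3 each). EGFR, whose signalling is known to loosen desmosomes, was at 203 ± 26.0 TPM, and the membrane protease ADAM17, a sheddase of DSG2, at 24.4 ± 1.59 TPM (SD, n = 3 each). Of 10 regulators of epithelial genes, 6 were at or above 1 TPM, which is near that share. KLF5 was the highest at 151 ± 24.4 TPM, followed by TP63, the master regulator of basal epithelium, at 49.8 ± 6.15 TPM (SD, n = 3 each). GRHL1, a Grainyhead factor known to act on DSG1 in skin, was at 0.492, 0.411 and 0.248 TPM from 14, 12 and 6 reads. Of the other Grainyhead factors in the list, GRHL3 was at 2.15, 2.62 and 1.66 TPM and GRHL2 had 0 reads. A relation of these factors to the level of DSG1 was not tested.

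Regulators that lower epithelial junction genes were measured in the same libraries as the high desmosome genes. All 6 of that list had a mean of at least 1 TPM, beside 56.7% of protein-coding genes. SNAI2 was the highest at 129, 134 and 101 TPM, with TWIST2 next at 61.6, 72.3 and 51.4 TPM. SNAI1, at 1.45, 1.19 and 0.524 TPM, was below 1 TPM in replicate 3. VIM (vimentin), a filament protein of mesenchymal cells, was at 1533 ± 173 TPM (SD, n = 3), while DES (desmin), which binds desmosomes in the heart, was at 0, 0.331 and 0.200 TPM.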
